A study of Mus musculus with 18 samples.

Results

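The genes described here were 9 transcription factors that set and keep the hepatocyte phenotype, *Hnf4a*, *Foxa1*, *Foxa2*, *Foxa3*, *Cebpa*, *Cebpb*, *Nr5a2*, *Prox1* and *Onecut1*. They were chosen by symbol for their known role and are 9 of the 23352 gene symbols in the tables. Each had 1 entry per library and none had a failed estimate, and all 9 reached the minimum for testing, an average of 1 FPKM over the libraries, as did 10835 genes in all. FPKM counts the fragments of a gene per length of its transcripts and per mapped reads of the library.

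Liver poly(A) RNA came from 9 wild-type (WT) and 9 *Gpr180*KO male mice aged 20 weeks, all fed high fat diet (HFD), with 1 library per mouse. The knockout is a whole-body CRISPR/Cas9 deletion on the C57BL/6J background, so every cell type of the liver carries the allele, and a truncated *Gpr180* mRNA remains. *Gpr180* lay between 4.46 and 9.24 FPKM in WT and between 0.876 and 1.99 FPKM in *Gpr180*KO livers. The comparison asks whether loss of *Gpr180* under HFD changed the level of the factors that define the hepatocyte.

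Hepatocyte identity rests on a small set of DNA-binding factors that occupy the same enhancers and activate one another's genes. FOXA proteins open chromatin, HNF4A and the C/EBP proteins activate genes of lipoprotein, glucose, urea and plasma protein production, and NR5A2 activates genes of bile acid and cholesterol handling. PROX1 binds HNF4A and NR5A2 and lowers their activity, and ONECUT1, a cut-homeodomain protein also called HNF6, acts upstream of *Foxa2* in the developing liver and in bile duct cells.

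None of the 9 factors passed the test between genotypes (limma on log2(FPKM + 0.1), Benjamini-Hochberg adjusted p under 0.05), and none had an unadjusted p under 0.05. Across all genes tested, 4.73% were called, which is 464 genes lower and 49 higher in *Gpr180*KO livers. After median-of-ratios scaling, which sets the libraries to a common median gene, 2.7% of all genes and again 0 of 9 factors were called. The scaling moved the median log2 difference of all genes from -0.13 to 0.02, and the sign of several factor differences depends on it. Across 33 alternative settings the lowest adjusted p of any factor was 0.166. How much a factor varied from liver to liver differed widely among the 9.

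Libraries differed in depth by up to 2.26-fold, as estimated from the smallest FPKM steps. *Gpr180*KO mouse KO51 stood apart from all others. Its FPKM sum was the highest of the 18 (718746, next 629067), and transcripts over 5000 nt lay lower in it than those under 2000 nt, by 1.50 on the log2 scale, against differences of -0.09 to 0.11 in the other 17. It set the lowest or highest *Gpr180*KO value of 7 factors, and their differences are therefore also given without it. The sample titles came in 2 styles, each with both genotypes (4 and 4 libraries in style 1, 5 and 5 in style 2). Hepatocyte markers were abundant in every library (11 genes, summed 21627 FPKM or more), and of 4 adipocyte markers *Adipoq*, *Plin1* and *Lep* were under 0.1 FPKM throughout, while *Cidec*, a lipid droplet gene also made by fat-laden hepatocytes, lay at 17.1 to 75.7 FPKM in WT and 1.65 to 59.1 FPKM in *Gpr180*KO livers (limma adjusted p = 0.217).

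The level of the factors fell into an upper and a lower tier. *Hnf4a* (mean 116 FPKM) and *Cebpa* (89.9 FPKM) were the 2 most abundant factors in all 18 livers, and *Hnf4a* exceeded *Cebpa* in 16 of them (permutation with sign flips, adjusted p = 0.00692 over 8 neighbouring pairs). *Cebpa* exceeded the next factor, *Foxa3* at 15.5 FPKM, in 18 of 18 livers, by 2.57 on the log2 scale (adjusted permutation p = 8e-05). *Foxa3*, *Foxa2* (14.7 FPKM), *Nr5a2* (14.6 FPKM), *Cebpb* (14.1 FPKM) and *Prox1* (11.7 FPKM) followed, and no neighbours among these 5 differed beyond their spread (adjusted permutation p from 0.695 to 0.941). *Onecut1* (9.86 FPKM) came below *Prox1* in 14 of 18 livers (adjusted permutation p = 0.0431), and *Foxa1* (6.66 FPKM) was not separated from *Onecut1* (adjusted permutation p = 0.34), which had the higher mean but exceeded *Foxa1* in only 6 of 18 livers. The step from *Prox1* to *Onecut1* passed the test in neither genotype alone, and that from *Hnf4a* to *Cebpa* in WT alone (adjusted exact permutation p = 0.0469) but not in *Gpr180*KO livers (0.281). These p-values measure how steady a difference was from liver to liver. They do not cover an error in the FPKM of a gene that all libraries share.

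**Figure D1:**
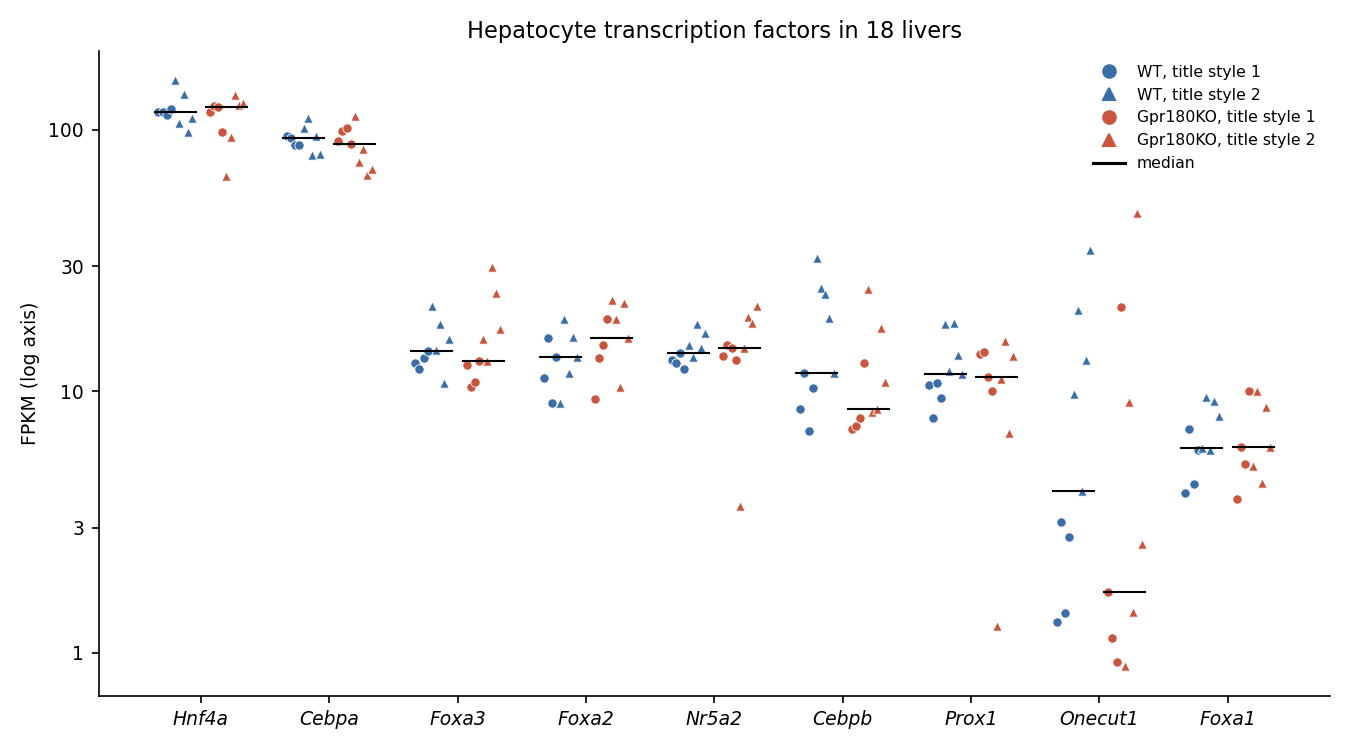
FPKM of each factor (log axis) in the 18 livers, with WT in blue, *Gpr180*KO in red, circles for title style 1, triangles for title style 2 and black bars for the median of each genotype. The genotypes overlap for all 9 factors, *Hnf4a* and *Cebpa* lie above the others, and *Onecut1* spreads from 0.888 to 47.9 FPKM.

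*Hnf4a* (mm10 chr2:163547188-163572907, plus strand) encodes a nuclear receptor that drives lipoprotein, coagulation and bile acid genes. Its lowest, median and highest level was 97.8, 116 and 155 FPKM in WT and 66.6, 122 and 136 FPKM in *Gpr180*KO livers. The ranges overlapped, and the lowest of all 18 values was that of KO51. The log2 difference was -0.11 (95% interval -0.36 to 0.15, limma adjusted p = 0.607), a fold of 0.928 with an interval from 0.779 to 1.11, and scaling by median of ratios gave 0.05. Without KO51 the log2 difference was -0.02, and the *Gpr180*KO livers had 118 ± 14.3 FPKM (SD, n = 8), beside 119 ± 17.1 FPKM (SD, n = 9) in WT.

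*Cebpa* (chr7:35119293-35121931, plus strand), a gene of a single exon, encodes the C/EBP factor of the resting hepatocyte and of glucose and urea cycle genes. WT livers ranged from 80.2 over a median of 92.8 to 110 FPKM, and *Gpr180*KO livers from 67.1 over 87.9 to 112 FPKM. *Cebpa* was the steadiest factor, with a spread within genotype at the 22.9 percentile of all genes tested, and its interval was the narrowest of the 9. Without KO51 *Cebpa* lay close to *Hnf4a*, at the 34.5 and 37.5 percentiles (log2 SD 0.185 and 0.192). The log2 difference was -0.09 (95% interval -0.29 to 0.12, limma adjusted p = 0.605), a fold of 0.941 (0.817 to 1.08), and it was 0.07 after scaling. Without KO51, which had the highest *Gpr180*KO value, it was -0.14 (interval -0.32 to 0.05, limma adjusted p = 0.366).

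*Cebpb* (chr2:167688915-167690418, plus strand) encodes the C/EBP factor of the acute phase and of regeneration. Its lowest, median and highest level was 7.04, 11.8 and 32.4 FPKM in WT and 7.17, 8.53 and 24.5 FPKM in *Gpr180*KO livers, the last value again from KO51. The ranges overlapped over most of their length. The log2 difference of -0.46 had an interval from -1.07 to 0.16 (limma adjusted p = 0.367), and it was -0.31 after scaling. Without KO51 it was -0.61 (limma, interval -1.2004 to -0.0133, adjusted p = 0.193). Its unadjusted p in that limma fit was 0.0456, so it fails the correction. The share of *Cebpb* in the sum of *Cebpa* and *Cebpb* was 14.7 ± 6.12% in WT and 11.7 ± 4.90% in *Gpr180*KO livers (SD, n = 9 each, exact permutation p = 0.263). The coding gene *Tmem189* overlaps 908 bases of this locus on the opposite strand, and whether reads were counted by strand is not given in the sources used here.

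The 3 FOXA genes encode forkhead pioneer factors with overlapping binding, and *Foxa2* is the one most tied to fasting metabolism. *Foxa1* (chr12:57540632-57546121, minus strand) ranged from 4.07 over a median of 6.05 to 9.50 FPKM in WT and from 3.87 over 6.10 to 9.999 FPKM in *Gpr180*KO livers. *Foxa2* (chr2:148042878-148046969, minus strand) ranged from 8.98 over 13.5 to 18.8 FPKM in WT and from 9.31 over 16.015 to 22.3 FPKM in *Gpr180*KO livers. *Foxa3* (chr7:19013283-19023539, minus strand) ranged from 10.8 over 14.2 to 21.2 FPKM in WT and from 10.3 over 13.1 to 29.9 FPKM in *Gpr180*KO livers. The genotypes overlapped for all 3, although 4 *Gpr180*KO livers (KO51, KO54, KO322 and KO52) had more *Foxa2* than every WT liver.

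*Foxa2* had the largest positive difference of the 9 factors, 0.28 on the log2 scale (95% interval -0.10 to 0.65, limma adjusted p = 0.365), 0.43 after scaling and 0.21 without KO51. *Foxa1* differed by -0.04 (interval -0.46 to 0.38, limma adjusted p = 0.921), which turned to 0.11 after scaling. *Foxa3* differed by 0.08 (interval -0.30 to 0.46, limma adjusted p = 0.81). The composition of the family did not pass a test between genotypes either. *Foxa1*, *Foxa2* and *Foxa3* made up 19.05, 37.9 and 43.0% of the summed FOXA level in WT and 17.1, 41.7 and 41.3% in *Gpr180*KO livers, with exact permutation p of 0.328, 0.312 and 0.727.

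*Nr5a2* (chr1:136843584-136960448, minus strand) encodes the nuclear receptor LRH-1, an activator of bile acid synthesis and cholesterol export genes. WT livers ranged from 12.1 over a median of 13.9 to 18.1 FPKM, and *Gpr180*KO livers from 3.63 over 14.6 to 21.1 FPKM. The value of 3.63 FPKM was that of KO51 and lay apart from the other 8 *Gpr180*KO livers, which started at 13.2 FPKM. The log2 difference was -0.08 (95% interval -0.56 to 0.41, limma adjusted p = 0.859). It turned to 0.07 after scaling and to 0.16 without KO51, when the *Gpr180*KO livers had 16.2 ± 2.90 FPKM (SD, n = 8) beside 14.5 ± 1.95 FPKM (SD, n = 9) in WT.

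*Prox1* (chr1:190121777-190170680, minus strand) encodes a homeodomain corepressor of HNF4A and NR5A2 that is also the defining factor of lymphatic endothelium. WT livers ranged from 7.89 over 11.7 to 18.3 FPKM and *Gpr180*KO livers from 1.26 over 11.3 to 15.5 FPKM. The lowest value was again that of KO51, and the next *Gpr180*KO liver had 6.91 FPKM. The log2 difference was -0.38 (95% interval -1.12 to 0.35, limma adjusted p = 0.528), a fold of 0.766 (0.46 to 1.28), and -0.23 after scaling. Without KO51 it was -0.04 (interval -0.41 to 0.33, limma adjusted p = 0.924), and 0.09 when the values were also scaled. The annotated antisense genes *Prox1os* and *Gm28172* overlap the locus on the opposite strand over 385 and 964 bases.

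*Onecut1* (chr9:74861921-74889647, plus strand) varied more than any of the other 8 factors, by 54.0-fold from the lowest to the highest liver. Its lowest, median and highest level was 1.31, 4.15 and 34.6 FPKM in WT and 0.888, 1.71 and 47.9 FPKM in *Gpr180*KO livers. The 18 values left a gap, with 7 livers at 9.13 FPKM or more (4 WT and 3 *Gpr180*KO) and 11 at 4.15 FPKM or less (5 WT and 6 *Gpr180*KO). The high livers were W131 (9.73 FPKM), W156 (13.1 FPKM), W133 (20.5 FPKM), W157 (34.6 FPKM), KO52 (9.13 FPKM), KO322 (20.9 FPKM) and KO54 (47.9 FPKM). High and low livers thus occurred in both genotypes.

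The spread of *Onecut1* within genotype was 1.87 on the log2 scale, at the 99.1 percentile of all genes tested. The log2 difference between genotypes was -0.72 with an interval from -2.38 to 0.93 (limma adjusted p = 0.600), so that folds from 0.193 to 1.91 lie within its error. Without KO51 it was -0.49 (limma adjusted p = 0.755). Mean levels were 10.1 ± 11.2 FPKM in WT and 9.63 ± 15.8 FPKM in *Gpr180*KO livers (SD, n = 9 each, exact permutation p = 0.936). The other factors ranged by 1.68-fold (*Cebpa*) to 14.4-fold (*Prox1*) over the 18 livers, and by percentile of spread *Prox1* (97.0), *Cebpb* (95.3) and *Nr5a2* (90.9) came next after *Onecut1*. The place of *Prox1* and *Nr5a2* in that order rested on KO51, without which *Prox1* ranged by 2.64-fold and *Nr5a2* by 1.75-fold, at the 84.7 and 47.9 percentiles, while *Cebpb* (4.60-fold) stayed at 95.5 and *Onecut1* (51.8-fold) at 99.0. The annotated noncoding gene *Gm20649* covers the *Onecut1* locus on the same strand and is not an entry of the tables.

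**Figure D2:**
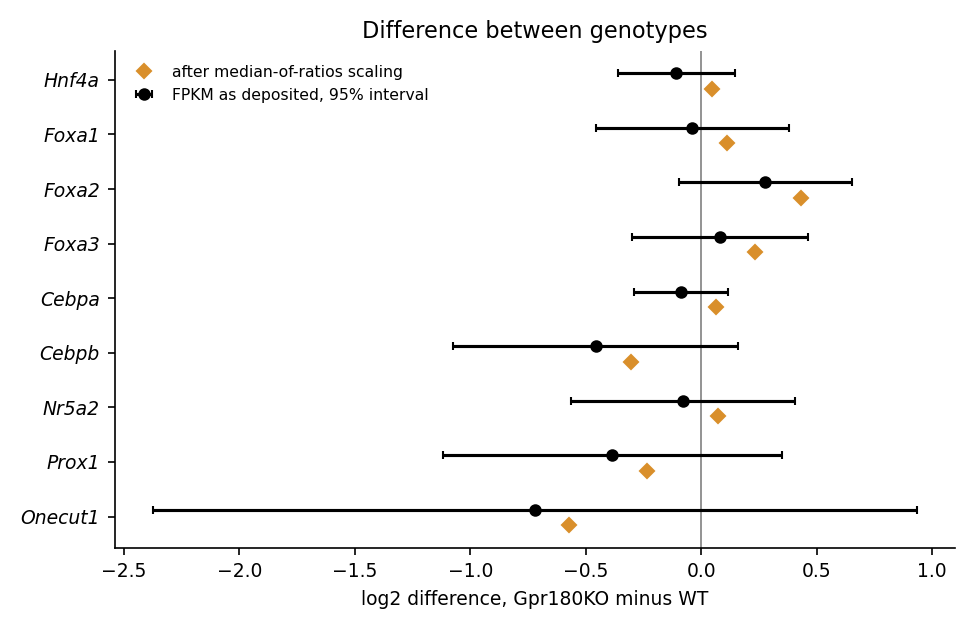
Difference between genotypes for each factor on the log2(FPKM + 0.1) scale, *Gpr180*KO minus WT, with the limma estimate and 95% interval of the FPKM as deposited in black and the estimate after median-of-ratios scaling in orange. All 9 intervals include 0, from the narrowest of *Cebpa* (-0.29 to 0.12) to the widest of *Onecut1* (-2.38 to 0.93).

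Some of the spread followed the title styles, which is a comparison added after the values were seen. *Cebpb* was higher in style 2 livers, by 0.87 on the log2 scale averaged over the genotypes (exact permutation within genotype, adjusted p = 0.0363 over the 9 factors). In WT livers it had 9.42 ± 2.06 FPKM in style 1 (SD, n = 4) and 22.3 ± 7.63 FPKM in style 2 (SD, n = 5), and in *Gpr180*KO livers 8.83 ± 2.71 and 13.9 ± 6.97 FPKM. *Foxa3* was higher in style 2 by 0.48 (exact permutation, adjusted p = 0.0363), and both calls held after scaling (adjusted p = 0.0145 each, exact permutation). *Onecut1* differed by 1.70 without passing (exact permutation, adjusted p = 0.16), although in WT the styles did not overlap, at 1.31 to 3.16 FPKM in style 1 and 4.15 to 34.6 FPKM in style 2.

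The genotype difference of a factor was not shown to depend on the title style. The interaction was called for 0.0% of all genes and for 0 of 9 factors (limma, adjusted p from 0.67 to 0.908). The lowest p was that of *Prox1*, whose genotype difference was lower in style 2, the style of KO51, by -1.31 (95% interval -2.75 to 0.12, unadjusted p = 0.0702 by the limma fit). In style 1 alone, *Prox1* had 9.65 ± 1.30 FPKM in WT and 12.3 ± 2.00 FPKM in *Gpr180*KO livers (SD, n = 4 each), a log2 difference of 0.35 (limma adjusted p = 0.166). The unadjusted p of that limma fit was 0.033, and it fails the correction. In style 2 alone it had 14.8 ± 3.23 and 9.69 ± 5.70 FPKM (SD, n = 5 each), a log2 difference of -0.97 (limma adjusted p = 0.382). Every other factor but *Foxa2* also had a style 2 difference more than 1.5 times that of all livers, and none was called. Negative were *Onecut1* (-1.55, limma adjusted p = 0.41), *Cebpb* (-0.74, limma adjusted p = 0.286), *Nr5a2* (-0.24), *Cebpa* (-0.21), *Foxa1* (-0.21, limma adjusted p = 0.634) and *Hnf4a* (-0.17). *Foxa3* was positive (0.28, limma adjusted p = 0.528). The style 2 values include KO51, the lowest of all 18 livers for *Hnf4a*, *Nr5a2*, *Prox1* and *Onecut1*, and style 2 was not fitted without it. Over the livers of both styles without KO51, the log2 difference was 0.16 for *Nr5a2*, -0.018 for *Hnf4a* and -0.0033 for *Foxa1*. It was -0.14 for *Cebpa*, -0.49 for *Onecut1* and -0.61 for *Cebpb*.

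**Figure D3:**
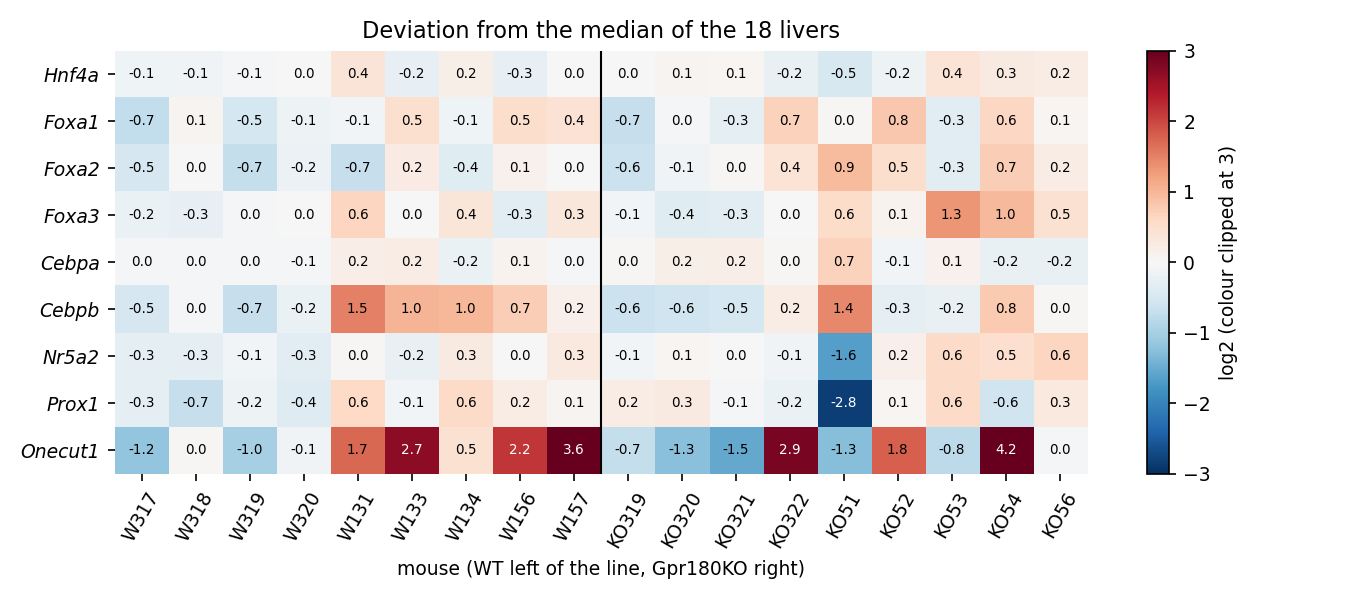
Log2 deviation of each factor from its median over the 18 livers, after median-of-ratios scaling, with 1 column per mouse and WT left of the line. *Onecut1* is the row with the strongest colours in both genotypes, and KO51 is the column in which *Prox1* and *Nr5a2* are low while *Cebpb*, *Foxa2* and *Cebpa* are high.

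In KO51, after scaling, the 4 factors with the longest transcripts lay below the median of the other *Gpr180*KO livers and the other 5 above it. In the FPKM as deposited *Foxa1* also lay below it, with a log2 difference of -0.24. After scaling, *Prox1*, with the longest transcript (7913 nt), had a log2 difference of -2.97 to the median of the other 8 *Gpr180*KO livers. *Nr5a2* (4733 nt) differed by -1.75, *Hnf4a* (4362 nt) by -0.55 and *Onecut1* (3957 nt) by -0.91. *Foxa1* (3191 nt) differed by 0.03. The shorter transcripts were higher, *Cebpa* (2626 nt) by 0.65, *Foxa2* (2128 nt) by 0.81, *Foxa3* (2037 nt) by 0.51 and *Cebpb* (1504 nt) by 1.70. The part of transcript length in the KO51 values of single factors was not tested.

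**Figure D4:**
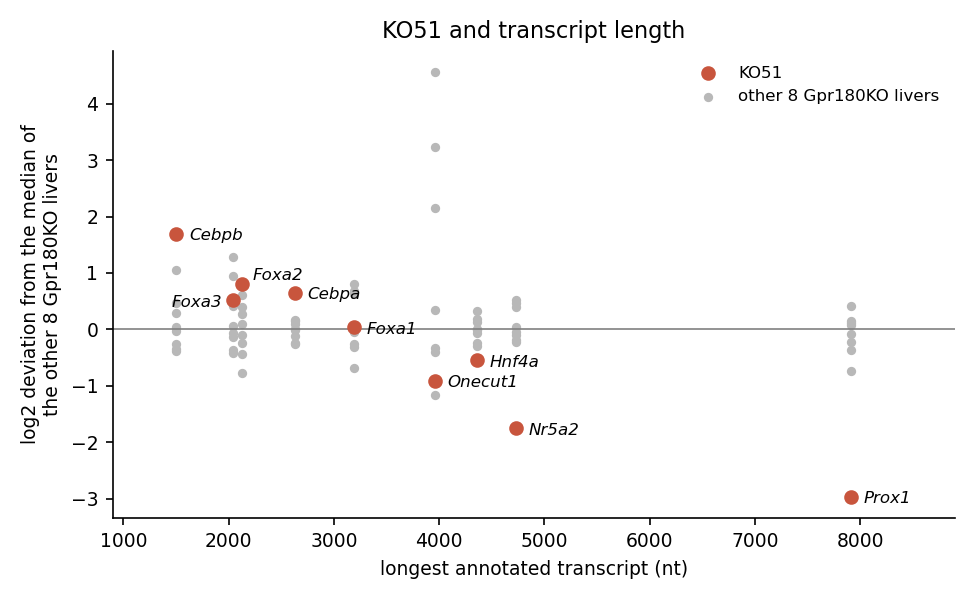
Log2 deviation from the median of the other 8 *Gpr180*KO livers after scaling, for KO51 (red) and those 8 livers (grey), against the length in nt of the longest annotated transcript of each factor. KO51 runs from 1.70 for *Cebpb* to -2.97 for *Prox1*.

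Several factors varied together from liver to liver. Of 36 pairs, 4 passed both the Pearson and the Spearman test over the 18 livers (scaled values, 100000 permutations, Benjamini-Hochberg over 36 pairs), and all 4 were positive. *Foxa1* and *Foxa2* had rho = 0.79 (adjusted permutation p = 0.00612) and r = 0.74 (0.00576). Without the 2 livers farthest from the *Foxa1* median r was 0.70, within the title styles rho was 0.76 (n = 8) and 0.62 (n = 10), and without KO51 it was 0.85. *Foxa1* and *Onecut1* had rho = 0.74 (adjusted permutation p = 0.011) and r = 0.80 (0.00252), with r = 0.82 without the 2 farthest livers and rho of 0.52 and 0.70 within the styles. The 6 livers with the highest *Foxa1*, at 8.02 FPKM or more (KO52, KO322, W133, W156, KO54 and W157), were all among the 7 livers with high *Onecut1*, and the other of these 7, W131, had 6.05 FPKM of *Foxa1*.

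The remaining 2 pairs had KO51 at an end of their range. *Hnf4a* and *Nr5a2* had rho = 0.73 (adjusted permutation p = 0.011) and r = 0.74 (0.00342), which became r = 0.67 and rho = 0.67 without KO51 and r = 0.58 without KO51 and KO53. *Nr5a2* and *Prox1* had rho = 0.67 (adjusted permutation p = 0.026) and r = 0.84 (0.0157), which became r = 0.46 and rho = 0.61 without KO51 and r = 0.43 without KO51 and KO56. Within the styles rho of this pair was 0.90 and 0.39. Another 3 pairs passed by r alone, *Hnf4a* with *Prox1* (r = 0.64), *Foxa2* with *Prox1* (r = -0.60) and *Cebpa* with *Nr5a2* (r = -0.76), and without KO51 these became 0.48, -0.40 and -0.38.

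**Figure D5:**
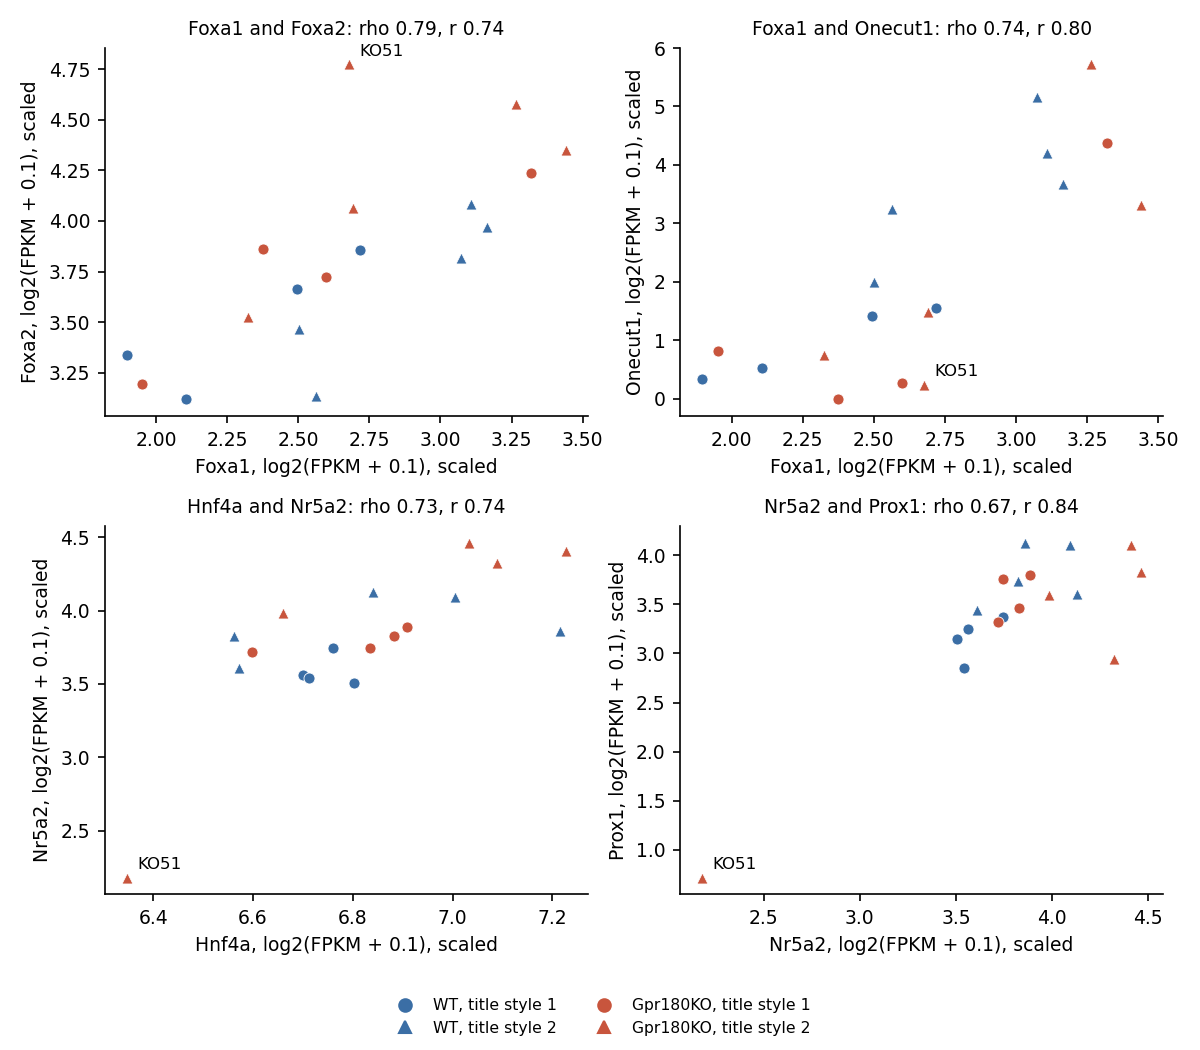
Scaled log2(FPKM + 0.1) of the 4 pairs that passed both correlation tests, 1 point per liver, WT in blue and *Gpr180*KO in red, circles for title style 1 and triangles for style 2. *Foxa1* rises with *Foxa2* (rho 0.79) and *Onecut1* (rho 0.74), and the *Onecut1* values form a lower and an upper group with a gap between them. Within the upper group *Onecut1* does not keep rising with *Foxa1*. KO51 lies alone at the lower left of the *Nr5a2* panels.

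The promoters of *Foxa1*, *Foxa2* and *Onecut1* are shown because *Foxa1* varied with both others, as the 250 bases before the RefSeq start (GRCm38.p6), 5′ to 3′ on the strand of the gene. Capitals mark a match to TGTTTAC, the FOX motif, or ATCAAT, the ONECUT motif, on either strand. The *Foxa1* window spans chr12:57546112-57546361 (minus strand), the *Foxa2* window chr2:148046970-148047219 (minus strand) and the *Onecut1* window chr9:74861671-74861920 (plus strand).
Foxa1: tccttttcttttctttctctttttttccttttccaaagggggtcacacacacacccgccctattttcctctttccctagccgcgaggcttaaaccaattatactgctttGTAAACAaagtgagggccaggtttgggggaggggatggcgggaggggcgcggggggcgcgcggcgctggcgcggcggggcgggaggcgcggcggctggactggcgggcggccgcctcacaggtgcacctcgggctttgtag
Foxa2: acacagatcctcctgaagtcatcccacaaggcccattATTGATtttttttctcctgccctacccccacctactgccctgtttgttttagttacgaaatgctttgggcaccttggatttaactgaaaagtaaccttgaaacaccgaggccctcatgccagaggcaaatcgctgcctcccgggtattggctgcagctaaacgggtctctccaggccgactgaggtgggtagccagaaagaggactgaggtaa
Onecut1: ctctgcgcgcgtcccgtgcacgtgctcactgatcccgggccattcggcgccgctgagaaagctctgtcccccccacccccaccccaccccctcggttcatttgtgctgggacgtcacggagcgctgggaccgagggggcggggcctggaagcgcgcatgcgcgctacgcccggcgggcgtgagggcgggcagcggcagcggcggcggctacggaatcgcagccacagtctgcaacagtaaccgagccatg

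The *Foxa1* window held a FOX match on the opposite strand that starts 141 bases before the start, and the *Foxa2* window an ONECUT match on the opposite strand 213 bases before it. The *Onecut1* window held none of the 6 motifs searched. TGTTTAC occurred in 3.17% and ATCAAT in 6.72% of all 32851 promoter windows of this length, beside 1 of 9 factor promoters for each. The motifs TGTTTGC (FOX), TTGCNNAA (C/EBP), CAAAGTCCA (HNF4) and CAAGGTCA (NR5A), searched on both strands, occurred in 4.30, 9.56, 0.384 and 1.33% of all windows and in 0 of 9 factor promoters. A match is a description of letters and not a binding site.

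For each factor, the 2 genes of all tested whose levels followed it most closely are given by rho over the 18 livers, as a description. *Onecut1* was nearest to *Atxn7l1* (0.91) and *Arid5b* (0.88), *Foxa1* to *Myc* (0.87) and *2810474O19Rik* (0.86), and *Foxa2* to *Phlda1* (0.89) and *Cish* (0.88), a feedback inhibitor of cytokine and growth hormone receptors. *Cebpb* was nearest to *Jund* (0.92), an AP-1 subunit, and to its own family member *Cebpd* (0.88). *Nr5a2* was nearest to *Lgr4* and *Gm4951* (0.94 each), *Hnf4a* to *Fam35a* (0.90) and *Akr1c14* (0.86), and *Prox1* to *Stxbp5* (0.91) and *Rreb1* (0.86). *Foxa3* followed *Ppp1r11* (0.88) and *2310009A05Rik* (0.87). *Cebpa*, the steadiest factor, had the lowest such values, with *Fdx1l* (0.75) and *Dusp12* (0.74). All share the library and its depth, and none of these 18 genes was called between genotypes.

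The partners of the factors did not pass the test either. Of 19 other hepatic transcription factors tested, 0 were called in either direction, as deposited or after scaling. The share called among all genes was 4.73% as deposited and 2.7% after scaling, so a count of 0 in a list this short lies near it. An unadjusted limma p under 0.05 was found for 4 of the 19, beside 2403 of all 10835 genes tested. Their median log2 difference was -0.15 beside -0.13 over all genes, and 0.01 beside 0.02 after scaling. *Hhex*, a homeobox factor of early liver and bile duct formation, named after its values were seen, had the largest positive value, 0.66 (interval 0.08 to 1.25, limma adjusted p = 0.172). *Gata4* and *Gata6*, zinc finger factors of liver development, differed by -0.23 and -0.30 (limma adjusted p = 0.172 and 0.357). The family members *Cebpd*, *Cebpg* and *Onecut2* differed by -0.37, -0.15 and -0.17 (limma adjusted p = 0.55, 0.4 and 0.665), and *Cebpg* by 0.0032 after scaling. None of 15 coregulators tested was called as deposited or after scaling, again near the share among all genes, and 0 had an unadjusted limma p under 0.05.

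Counts of called textbook target genes are read beside the share called among all genes, 4.73% as deposited and 2.7% after scaling. Counts at an unadjusted limma p under 0.05 are read beside 2403 of all 10835 genes tested. The lists were chosen with earlier results of these data known, so the counts are a description. Of 14 *Hnf4a* target genes and 7 FOXA target genes, 0 were called (limma, 3 and 1 at an unadjusted p under 0.05), and after scaling 1 of each was called, *Otc* (0.43) and *Pck1* (0.86), both higher. Of 13 C/EBP target genes, 1 fell, *Lcn2*, which encodes an acute phase lipocalin, with a log2 difference of -2.27 (limma adjusted p = 0.0309), a call that held in 11 of 18 fits that each left out 1 library. Another 7 C/EBP targets had an unadjusted limma p under 0.05, among them the acute phase genes *Saa2* (-1.49, adjusted p = 0.051), *Saa1* (-1.39, adjusted p = 0.0566) and *Orm2* (-0.92, adjusted p = 0.061). After scaling 1 C/EBP target was lower, *Lcn2*, and 1 higher, *Pck1*, the same gene as the FOXA target called. Of 11 *Nr5a2* target genes, 2 rose, *Scarb1*, the HDL receptor, by 0.45 (limma adjusted p = 0.00677), and *Abcg5*, a subunit of the biliary sterol exporter, by 0.80 (limma adjusted p = 0.0293, called in 13 of 18 such fits). At an unadjusted limma p under 0.05 there were 7 of 11, and after scaling 5 were called, all higher. *Nr5a2* itself was not called under any setting. Of 5 *Onecut1* target genes 0 were called (limma, 1 at an unadjusted p under 0.05).

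Some markers of other liver cells were called between genotypes, mainly of stellate cells and fibroblasts, and the bulk data cannot tell apart fewer cells of a type and less RNA per cell. Counts of called markers are read beside the share called among all genes, 4.73% as deposited and 2.7% after scaling. Of the biliary markers, 3 of 7 reached the minimum level and 2 were called, *Spp1* (log2 difference -1.96, limma adjusted p = 0.00701) and *Sox9* (-0.70, limma adjusted p = 0.0454, called in 5 of 18 fits without 1 library and not after scaling), and the sum of the 7 lay at 47.9 to 232 FPKM in WT and 22.0 to 55.4 FPKM in *Gpr180*KO livers. *Spp1* made up most of that sum, while *Krt7*, *Krt19*, *Epcam* and *Cftr*, which define duct cells, had medians under 1 FPKM in both genotypes. *Spp1* and *Sox9* also stand in the list of 13 fetal and progenitor genes and so are counted in both lists. Of these 13 genes 4 were tested and 3 fell, the third being *Cd24a* (log2 difference -1.38, limma adjusted p = 0.00677). After scaling 2 of the 4 were called, both lower. *Afp*, the classical fetal hepatocyte gene, stayed at 1.16 FPKM or less in every liver.

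Stellate cell and fibroblast markers were lower in 4 of 7 (*Col1a1* by -1.99, *Col1a2* by -1.63, *Pdgfrb* by -0.82 and *Dcn* by -0.68, limma adjusted p from 0.00631 to 0.0218), beside 4.73% of all genes, while *Lrat*, *Des* and *Reln* were not called. Their sum lay at 136 to 245 FPKM in WT and 76.3 to 129 FPKM in *Gpr180*KO livers, and *Dcn* made up 78.4% of it in WT and 81.9% in *Gpr180*KO livers. Of these markers only *Dcn* had ranges without overlap (116 to 196 FPKM in WT, 63.8 to 103 FPKM in *Gpr180*KO livers). The separation of the sum is therefore mainly that of *Dcn*, and the share of all genes without overlap is not given here. Of 6 macrophage markers tested 1 fell, *Cd68* (log2 difference -0.69, limma adjusted p = 0.0257, called in 14 of 18 fits without 1 library), and of 7 endothelial markers 0 were called (limma, 0 at an unadjusted p under 0.05). Of 11 hepatocyte markers 0 were called (limma, 0 at an unadjusted p under 0.05), with a median log2 difference of 0.10. Since bile duct cells also express *Onecut1*, *Foxa1* and *Foxa2*, and lymphatic endothelium *Prox1*, these values stand beside those of the factors, and the part of other cells in the factor levels was not tested.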

How the data were processed

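The authors prepared poly(A) libraries (TruSeq), processed reads against mm10 with Illumina's TopHat Alignment application, and its FPKM output was deposited as 1 table per mouse. The gene annotation is not given in the sources used here. Each table had 23847 entries. FPKM of entries with the same symbol were summed, and 24 genes with 190 failed estimates were dropped. The tables give no read counts, and depth per library was estimated here only as a ratio between libraries.

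Genes that averaged 1 FPKM or more were tested with limma 3.58.1 (R 4.3.3, eBayes with trend) on log2(FPKM + 0.1), which understates changes of low genes, with Benjamini-Hochberg adjustment at 0.05. Exact permutation tests between the genotypes enumerated 48620 regroupings (smallest p 4.11e-05), and those between title styles 15876 regroupings within genotype. Sign flips within 1 genotype were enumerated in full. Correlations and sign flips over all livers used 100000 resamples (Python 3.11.15, scipy 1.17.1), and all tests were two-sided. The p-values measure the spread between these mice. The fit was also run on simulated data with independent noise per gene and added changes larger than any factor difference of the main fit. The simulation held neither the length pattern of KO51 nor the title styles, so it cannot speak to the small factor differences given here. Mouse numbers shared by the genotypes name mice and pair none. Transcript lengths and overlaps came from GENCODE (GRCm38), matched for 94.4% of genes tested, and promoters from RefSeq (GRCm38.p6, 9 of 9 matched).

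Named genes were the 9 factors, *Gpr180*, close partners (some not reported here), called genes of each other list (at most the 5 largest), and the 2 genes of highest rho to each factor. *Otc*, *Pck1*, *Hhex*, *Saa1*, *Saa2*, *Orm2*, *Cidec*, *Lrat*, *Des*, *Reln*, *Afp*, *Krt7*, *Krt19*, *Epcam*, *Cftr* and the overlapping genes were named after their values were seen. Members and lists were chosen with earlier results of these data known. Alternatives were other pseudocounts, minimums and scalings, title style as a block or alone, library weights, no trend, and each library left out.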

Additional observations from a re-analysis of the deposited data

Results flagged for a closer look

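In the *Gpr180*KO group KO51 lay far from the other 8 livers for 2 factors on the log2 scale (Dixon's criterion for 9 samples). Its levels were 3.63 FPKM for *Nr5a2* and 1.26 FPKM for *Prox1*. The gap to the next liver over the range was 0.73 for *Nr5a2* and 0.67 for *Prox1*, both from log2 values and not from the FPKM themselves. With 20 groups looked at, chance marks about 1 in 20. In KO51 long transcripts were low across all genes, as described above, and *Prox1* and *Nr5a2* have the longest transcripts of the 9 factors. The part of that in these values was not tested.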

How the results depend on the processing

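No factor was called under any of the 33 alternatives, and of 297 values of single factors 264 kept their sign and 33 turned it, all with an adjusted p above the threshold. Median-of-ratios scaling turned *Hnf4a* to 0.046, *Foxa1* to 0.11, *Cebpa* to 0.066 and *Nr5a2* to 0.074, with the same values when title style was added as a block; 75th percentile scaling turned them to 0.014, 0.082, 0.034 and 0.042. Library weights turned *Foxa1* to 0.18, *Foxa3* to -0.12, *Nr5a2* to 0.11 and *Prox1* to 0.10. Title style 1 alone turned *Foxa1* to 0.17, *Foxa3* to -0.17, *Cebpa* to 0.061, *Nr5a2* to 0.12, *Prox1* to 0.35 and *Onecut1* to 0.32. Scaling without KO51, added after seeing the data, gave *Hnf4a* 0.11, *Foxa1* 0.12, *Nr5a2* 0.28 and *Prox1* 0.086. With 1 library left out, *Foxa1* ranged from -0.12 to 0.048, *Foxa3* from -0.039 (without KO53) to 0.15 and *Nr5a2* from -0.16 to 0.16 (without KO51), and *Prox1* moved from -0.38 to -0.038 without KO51. The cause was not tested.

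The count of genes called moved more, from 513 to 837 and 238 at minimums of 0.1 and 5 FPKM, 293 and 282 under median-of-ratios and 75th percentile scaling, 1153 with title style as a block, 1331 with library weights and 0 in style 2 alone (limma, 2019 at an unadjusted p under 0.05). Leaving out 1 library gave 132 (without W133) to 922 (without W157), and it was under 513 by more than 1.5 times also without W317, W318, W320, W156, KO52, KO53 or KO54 and above it without KO51 (778). In the order of levels, *Foxa3* over *Foxa2* turned to -0.024 in *Gpr180*KO alone, and *Foxa2* over *Nr5a2* and *Nr5a2* over *Cebpb* to -0.16 and -0.032 in WT alone. The *Foxa1* share of the FOXA sum turned to 1.80 percentage points in style 1 and the *Foxa3* share to 1.41 in style 2. No paired analysis was possible because mouse numbers do not pair the genotypes.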

Other observations

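The tables give lower and upper bounds beside each FPKM, whose level is not given in the sources used here. For *Cebpa* the FPKM lay inside its bounds in 0 of 18 libraries and for *Hnf4a* in 6 of 18, while for *Foxa1*, *Foxa2*, *Foxa3*, *Nr5a2* and *Prox1* it did in all 18, and for *Cebpb* and *Onecut1* in 16. The bounds were not used as errors.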
